A study of Mus musculus with 6 samples.

Results

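*Trac*, the constant region gene of the T cell receptor alpha chain, was examined together with 7 other T cell genes (*Cd3d*, *Cd3e*, *Cd3g*, *Cd4*, *Cd8a*, *Cd2* and *Lck*) and with *Dad1*, the gene that follows it on chromosome 14. These are 9 of the 33460 genes in the deposited files. *Trac* was chosen by its ratio of mean expression between FACS sorted brain mural cells and brain microvascular fragments, which was 20.0, so its own values are a description and carry no test. The other T cell genes were taken for their function and *Dad1* for its position, and the question was whether they follow *Trac*.

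The study sequenced RNA from the brains of 3 mice at P6 (postnatal day 6) that carried the reporters *Pdgfrb-eGFP* and *NG2-DsRed*. The mural group comprised 3 libraries of FACS sorted cells positive for both eGFP and DsRed. The comparison group comprised 3 libraries of microvascular fragments captured with magnetic beads against CD31, which contain both endothelial cells (EC) and mural cells. The methods state that each brain was divided, one side for the sort and the other for the fragments, so that all 6 libraries came from double transgenic animals and both groups drew on the same 3 mice. Each reporter alone also marks cells outside the vessel wall, so the identity of the sorted cells rests on the presence of both. The gate and the bead capture differ in more than cell type, since single cells were sorted in the former and pieces of vessel were lysed in the latter.

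T cells recognise antigen through a receptor of paired alpha and beta chains. For the alpha chain, a V and a J segment are joined by recombination in the thymus and spliced to a constant region, which is *Trac*. The constant region of the beta chain is *Trbc1* or *Trbc2*. The receptor reaches the cell surface only with the CD3 chains encoded by *Cd3d*, *Cd3e* and *Cd3g* and the zeta chain encoded by *Cd247*. CD4 and CD8 bind MHC molecules beside the receptor, LCK is the kinase that phosphorylates the CD3 chains, and CD2 is an adhesion molecule of T and NK cells. DAD1 is a subunit of the oligosaccharyltransferase complex, which attaches N-glycans to proteins in the endoplasmic reticulum of all cells.

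The *Trac* model on which the values rest is short. In NCBIM37, the build of the deposited files, *Trac* (ENSMUSG00000076928) lies on the plus strand at chr14:54840196-54842772 as a constant region gene with 1 transcript of 413 bases in 3 exons, and no other annotated gene overlaps it. The exons are shown 5′ to 3′ because each read pair counted for *Trac* had to fall on them. Capitals mark the stop codon, with which the model ends, so that it holds no 3′ UTR.
*Trac* exon 1, chr14:54840196-54840456: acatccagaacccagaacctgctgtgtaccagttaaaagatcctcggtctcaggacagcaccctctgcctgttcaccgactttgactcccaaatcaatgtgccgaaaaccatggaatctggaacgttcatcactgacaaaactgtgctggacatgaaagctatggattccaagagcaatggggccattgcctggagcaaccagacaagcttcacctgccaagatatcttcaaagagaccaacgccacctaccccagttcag
*Trac* exon 2, chr14:54841781-54841825: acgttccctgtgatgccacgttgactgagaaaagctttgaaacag
*Trac* exon 3, chr14:54842666-54842772: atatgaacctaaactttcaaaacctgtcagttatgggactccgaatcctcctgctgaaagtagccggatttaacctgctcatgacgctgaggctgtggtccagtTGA
The exons are 261, 45 and 107 bases long with a GC content of 49.8, 46.7 and 46.7%. A blastn search of the same genome at an E value limit of 0.001 found each exon at its own position and found 0 matches elsewhere.

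The depth of the libraries differed between the groups. Values were deposited as FPKM (fragments per kilobase of transcript, scaled to library size), and for genes with a single transcript 97.8 to 98.4% of the low values were whole multiples of 1 sequenced fragment, here called a read pair, within 0.05. On protein-coding genes this gave approximately 5.43 to 5.95 M read pairs in the microvascular libraries and 1.04 to 2.37 M in the mural cell libraries. These depths are recovered from values made after duplicates were taken out. They lie below the number of pairs that the paper reports as sequenced in each sample. The step at which the groups came to differ in depth was not tested. The marker lists fit the sort in part. By limma, 8 of 8 mural cell genes were called higher in the mural group, beside 6.43% of all genes tested. Their summed FPKM was 3116 to 4121 against 297 to 469. This list holds *Pdgfrb* and *Cspg4* (NG2), whose promoters drive the reporters of the sort, so their calls are not independent support. Of 8 EC genes, 0 passed the calling rule (limma, adjusted p below 0.05 and a ratio of means below 0.5). This is near the 10.1% of all genes called lower. However, 6 of the EC genes had an unadjusted p below 0.05 and were lower, and 4 genes of the list had an adjusted p below 0.05. The summed FPKM of these EC genes was 1418 to 1793 in the sorted cells and 1859 to 2204 in the fragments. Mural library 3 stood apart in astrocyte markers, with a summed FPKM over 5 genes of 442 compared with 180 and 143 in mural libraries 1 and 2 and 201 to 294 in the fragments. As these are bulk samples, fewer cells of a type and less RNA per cell cannot be told apart.

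In mural libraries 1, 2 and 3 *Trac* reached 24.3, 31.2 and 23.8 FPKM, and in microvascular libraries 1, 2 and 3 it stood at 2.96, 0 and 0.993 FPKM. All 3 mural libraries were therefore above all 3 microvascular libraries. The mural mean of 26.4 ± 4.13 (SD, n = 3) stood against a microvascular mean of 1.32 ± 1.51 (SD, n = 3), a difference of 3.77 on the log2(FPKM + 1) scale (standard error 0.48). Without microvascular library 1, 2 or 3 the ratio of the means was 53.2, 13.4 or 17.8, respectively.

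Converted to read pairs, the mural signal of *Trac* amounted to 9, 5 and 4 pairs in libraries 1, 2 and 3, and the microvascular signal to 3, 0 and 1. In the shallow mural libraries 2 and 3 a single pair on *Trac* was worth 6.23 and 5.95 FPKM, compared with 0.988 to 1.07 FPKM in the microvascular libraries. The exact Poisson 95% intervals of the counts were 4.12 to 17.1, 1.62 to 11.7 and 1.09 to 10.2 pairs in mural libraries 1, 2 and 3. In the fragments they were 0.619 to 8.77, 0 to 3.69 and 0.0253 to 5.57 pairs. These intervals cover counting error only, and the counts of the groups were drawn at different depths.

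The counts can be pooled as a description. There were 18 read pairs on *Trac* over 4.45 M protein-coding read pairs of mural libraries and 4 over 17.31 M of microvascular libraries. The ratio of rates was 17.5, with a counting interval of 5.76 to 71.0. That interval treats the libraries of a group as 1 count and leaves out the spread between them. Since *Trac* was chosen for its ratio, the interval is not a test. Scaled to 1 M protein-coding read pairs, the mural libraries held 3.80, 4.83 and 3.81 pairs on *Trac*, and the microvascular libraries 0.504, 0 and 0.169. By comparison, the 258 other single-transcript genes called higher in mural cells had a median of 134 mural read pairs, and 23 of them had 18 or fewer.

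**Figure D1:**
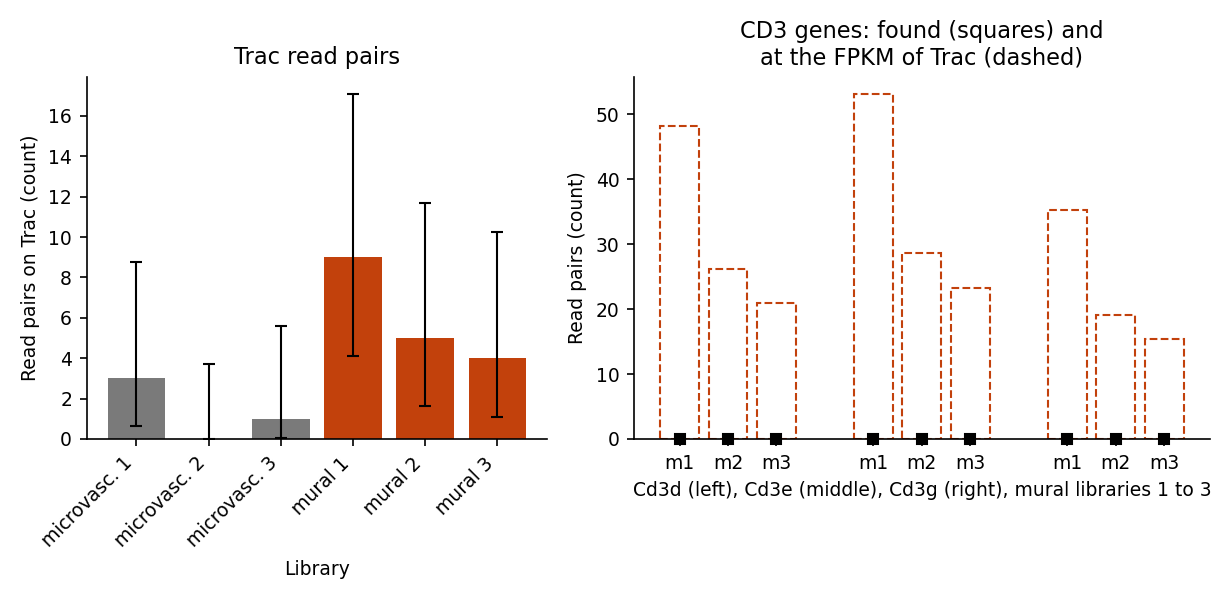
Left, read pairs on *Trac* in each library (bars, count) with exact Poisson 95% intervals, which shows 9, 5 and 4 pairs in the mural libraries and 3, 0 and 1 in the microvascular (microvasc.) libraries. Right, the read pairs found on *Cd3d*, *Cd3e* and *Cd3g* in mural libraries 1 to 3 (squares, all at 0) and the number each gene would have held at the FPKM of *Trac* in that library (dashed bars, 15.4 to 53.1 pairs).

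The CD3 genes did not follow *Trac*. *Cd3d*, *Cd3e* and *Cd3g*, which encode the delta, epsilon and gamma chains, were listed at 0 in all 6 libraries. Their transcripts are longer than the *Trac* model (1323, 1436 and 1023 bases), so the same FPKM corresponds to more read pairs. At the FPKM of *Trac*, *Cd3e* would have held 53.1, 28.7 and 23.2 pairs in mural libraries 1, 2 and 3. Summed over the mural libraries this came to 105.0 pairs for *Cd3e*, 95.4 for *Cd3d* and 69.8 for *Cd3g*, where 0 were found. A count of 0 allows up to 3 read pairs, which limits *Cd3e* to 1.37 to 3.26 FPKM in the mural libraries and 0.521 to 0.572 FPKM in the fragments. For *Cd3d* the mural limits were 1.51 to 3.59 FPKM and for *Cd3g* 2.07 to 4.89 FPKM. All of these limits lie below the FPKM of *Trac* in any mural library.

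The beta chain constant regions were also at 0, on shorter models. *Trbc1* and *Trbc2* were listed at 0 in all 6 libraries, and with models of 512 and 521 bases they would have held 26.3 and 27.1 pairs in all mural libraries at the FPKM of *Trac*. The zeta chain gene *Cd247*, which NK cells also use, had an FPKM of 2.72, 0.909 and 0 in the sorted cells, compared with 3.64, 3.41 and 2.79 in the fragments. The mural values lay below the microvascular values without passing the test (log2 difference -1.15, adjusted p = 0.134, limma), and *Cd247* overlaps *Pou2f1* on the other strand. It was called lower when mural library 1 was left out.

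The variable segments that would be joined to the constant region were at 0 in the mural libraries. Of 35 annotated V genes of the alpha and delta locus (267 to 457 bases), 0 were above 0 in any mural library and 1 in a microvascular library. The 21 V genes of the beta locus and the 7 of the gamma locus were at 0 in all libraries. On *Trdv4*, a V gene of 345 bases, 3 read pairs correspond to 11.8, 27.2 and 25.96 FPKM in mural libraries 1, 2 and 3. *Trac* itself had 24.3, 31.2 and 23.8 FPKM there. Its 18 mural read pairs, if shared among many V genes, could leave 0 on most of them. The zeros of the V genes therefore carry little information. The 61 alpha and delta J segments, of 27 to 72 bases, were also at 0, but so were all 1398 genes of less than 100 bases in the files, so these zeros carry no information. Of the gamma constant genes, *Tcrg-C1* and *Tcrg-C2* (matched by RefSeq synonym) were at 0 throughout and *Tcrg-C* held 1 read pair, in microvascular library 1. Of 5 genes listed for receptor recombination and early T cell development, *Rag2*, *Dntt* and *Ptcra* were at 0 in all 6 libraries and *Rag1* was at 0 in all mural libraries. The fifth, *Cd1d1*, which many other cells also express, had 4.30, 2.31 and 3.12 FPKM in mural cells against 7.69, 2.70 and 8.15 FPKM (adjusted p = 0.288, limma).

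*Cd4* went the other way. Its FPKM was 1.55, 0 and 0 in mural libraries 1, 2 and 3 and 5.16, 3.81 and 5.92 in microvascular libraries 1, 2 and 3, so that the groups did not overlap. It was called lower in mural cells (log2 difference -2.11, standard error 0.43, adjusted p = 0.0124, limma over 14801 genes). With mural libraries 2 and 3 at 0, *Cd4* passed the filter on low values through the microvascular libraries, so its call is not support for a difference. Of all genes tested, 10.1% were called lower and 6.43% higher, 16.5% in either direction, and the median log2 difference was -0.12. Mural values lay below all microvascular values in 24.5% of the genes tested and above all of them in 16.5%. Of the 8 members other than *Trac*, *Cd4* and *Dad1* passed the filter on low values, and *Cd4* was called. The mural FPKM of *Cd4* rested on approximately 8.0 read pairs in library 1.

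*Cd8a*, *Cd2* and *Lck* were too low for the fit across genes and were compared by an exact two-sided permutation test over the 6 libraries, which cannot give a p below 0.1. *Cd8a*, the alpha chain of the CD8 co-receptor, was at 0 in all mural libraries and at 0.151, 0 and 0.222 FPKM in the fragments (exact p = 0.4). *Cd2* had an FPKM of 0.594, 0 and 0 in the sorted cells, compared with 1.19, 0.668 and 0.279 in the fragments (exact p = 0.2). Neither gene had a mural value above the highest microvascular value.

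*Lck* was uneven within both groups. It was at 0 in mural libraries 1 and 2 and had an FPKM of 3.46 in mural library 3, and its FPKM in microvascular libraries 1, 2 and 3 was 3.92, 0.404 and 0.941. The groups overlapped (ratio of means 0.656, exact p = 0.5), and the mural value of library 3 came from approximately 5.4 read pairs. Single libraries decide the ratio, since it was 0 without mural library 3 and 1.71 without microvascular library 1. Mural library 3, the one with *Lck*, is also the one with raised astrocyte markers, whose part in this value was not tested, and it held 0 read pairs on the CD3 genes.

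**Figure D2:**
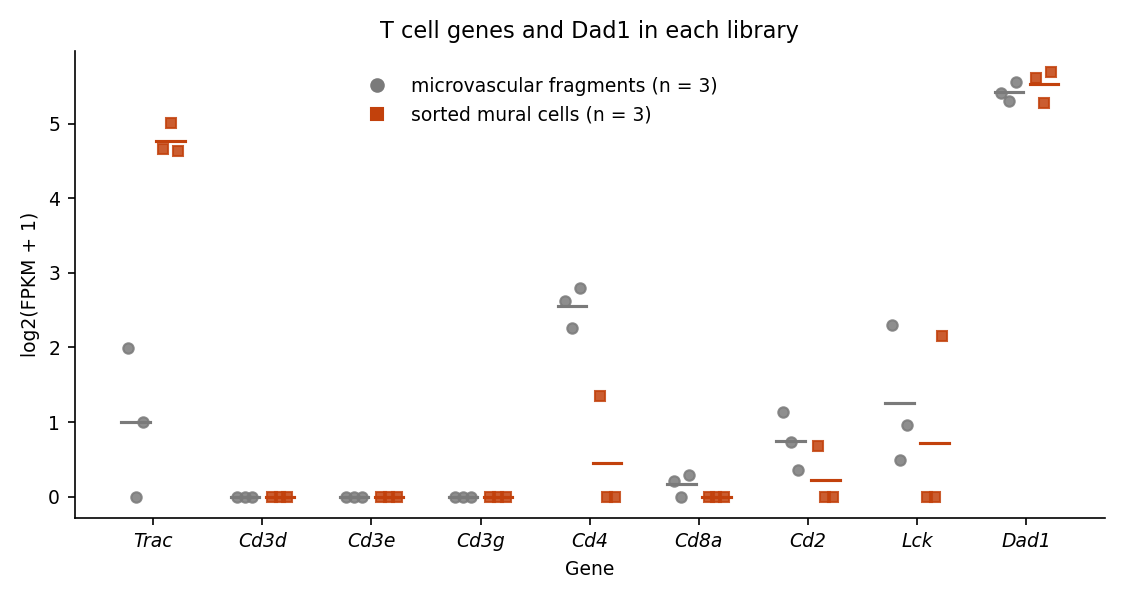
Expression as log2(FPKM + 1) of *Trac*, 7 T cell genes and *Dad1* in 3 microvascular libraries (circles) and 3 mural cell libraries (squares), with horizontal lines at the group means. *Trac* is higher in all mural libraries, the 3 CD3 genes are at 0 in every library, *Cd4* is lower in all mural libraries and *Dad1* overlaps between the groups.

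The wider set of T cell genes was taken as 4 lists (receptor and CD3 chains, co-receptors and surface proteins, signalling proteins, and transcription factors) with 55 genes, of which 53 were matched. Without *Trac*, 52 genes remained, and 21 of these were at 0 in all mural libraries, 10 at 0 in all microvascular libraries and 8 at 0 in all 6. The mural libraries held 4.45 M protein-coding read pairs in all and the microvascular libraries 17.31 M. At such unlike depth these counts of zeros cannot be compared between the groups. Only 20 passed the filter on low values. Of these, 1 was called higher in mural cells (5.0%, against 6.43% of all genes tested), 6 were called lower (30.0%, against 10.1%) and 13 were not called. Their median log2 difference was -0.44, beside -0.12 over all genes tested. Genes expressed in 1 group alone can pass the filter through that group, so these counts describe the genes that passed and not the lists as a whole. Of the 32 genes that did not pass, the highest FPKM in any mural library was the 3.46 of *Lck*.

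The 6 genes called lower were *Cd4*, *Cd28*, *Icos*, *Lcp2*, *Ptprc* and *Ikzf1*. *Cd28*, the co-stimulatory receptor of T cells, had an FPKM of 0.272, 0 and 0 in the sorted cells, compared with 1.80, 1.37 and 3.11 in the fragments (log2 difference -1.47). The related receptor gene *Icos* had 0, 0 and 0.417 against 1.74, 1.48 and 1.91 FPKM (log2 difference -1.27). In both genes all mural libraries lay below all microvascular libraries, but both reached an FPKM of 1 in the microvascular libraries alone and entered the test through them, so their calls are not support for a difference.

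The other 3 encode proteins of many blood cells. *Ptprc*, which encodes the leukocyte antigen CD45, had an FPKM of 2.21, 1.22 and 1.44 in the sorted cells, compared with 29.3, 25.9 and 32.1 in the fragments (log2 difference -3.53, adjusted p = 1.3e-04). *Ikzf1*, which encodes the lymphoid transcription factor Ikaros, had 2.10, 1.48 and 4.94 against 41.0, 38.6 and 44.6 FPKM (log2 difference -3.56, adjusted p = 4.2e-04). *Lcp2*, which encodes the adaptor SLP-76, had 13.2, 15.3 and 24.4 against 33.1, 34.2 and 42.3 FPKM (log2 difference -1.05, adjusted p = 0.0183). *Ptprc* and *Ikzf1* were called lower whichever library was left out. *Cd4* lost the call without microvascular library 1 or 3, and *Lcp2* without any 1 of the microvascular libraries or mural library 1 or 2. *Cd28* and *Icos* fell below the filter and were not tested when any 1 of the microvascular libraries was left out. The lists then had 18 tested genes in place of 20. In these fits 2 to 6 genes were called lower, *Cd247* among the 6 without mural library 1. With the replicate number as a block, *Icos* also lost its call.

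*Ptpn22*, a phosphatase that restrains receptor signalling in lymphocytes, was the 1 gene called higher. Its FPKM was 9.82, 4.23 and 6.50 in the sorted cells, compared with 1.89, 2.98 and 2.11 in the fragments (log2 difference 1.19, standard error 0.33, adjusted p = 0.0415). It overlaps *Gm15602* and *Gm15472*, which were at 0 in all mural libraries. The call was kept without mural library 2 and lost when any other library was left out, with the replicate number as a block and with no filter. With a filter at an FPKM of 5 the gene was not tested. The kinase gene *Fyn* (95.0, 90.7 and 104 against 71.9, 77.1 and 58.6 FPKM, adjusted p = 0.0417) and the transcription factor gene *Ets1* (177, 179 and 166 against 138, 131 and 123 FPKM, adjusted p = 0.0256) passed the adjusted p but not the 2-fold limit. FYN and ETS1 are also made by many cells other than T cells.

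Other signalling and transcription factor genes did not pass the test. *Zap70*, the kinase that binds phosphorylated CD3 chains, had an FPKM of 3.96, 5.54 and 7.01 in the sorted cells, compared with 5.27, 6.04 and 6.14 in the fragments (log2 difference -0.09, adjusted p = 0.834). It was thus detected in every library at levels that overlapped. *Tcf7* (45.2 to 55.7 against 35.0 to 48.5 FPKM), *Lef1* (33.0 to 44.8 against 38.3 to 57.8 FPKM), *Satb1*, *Gata3* and *Bcl11b* likewise overlapped between the groups, with adjusted p of 0.288 to 0.797. *Lat*, *Themis*, *Skap1*, *Txk* and *Ubash3a*, which act close to the receptor, were all below 0.5 FPKM in every library.

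**Figure D3:**
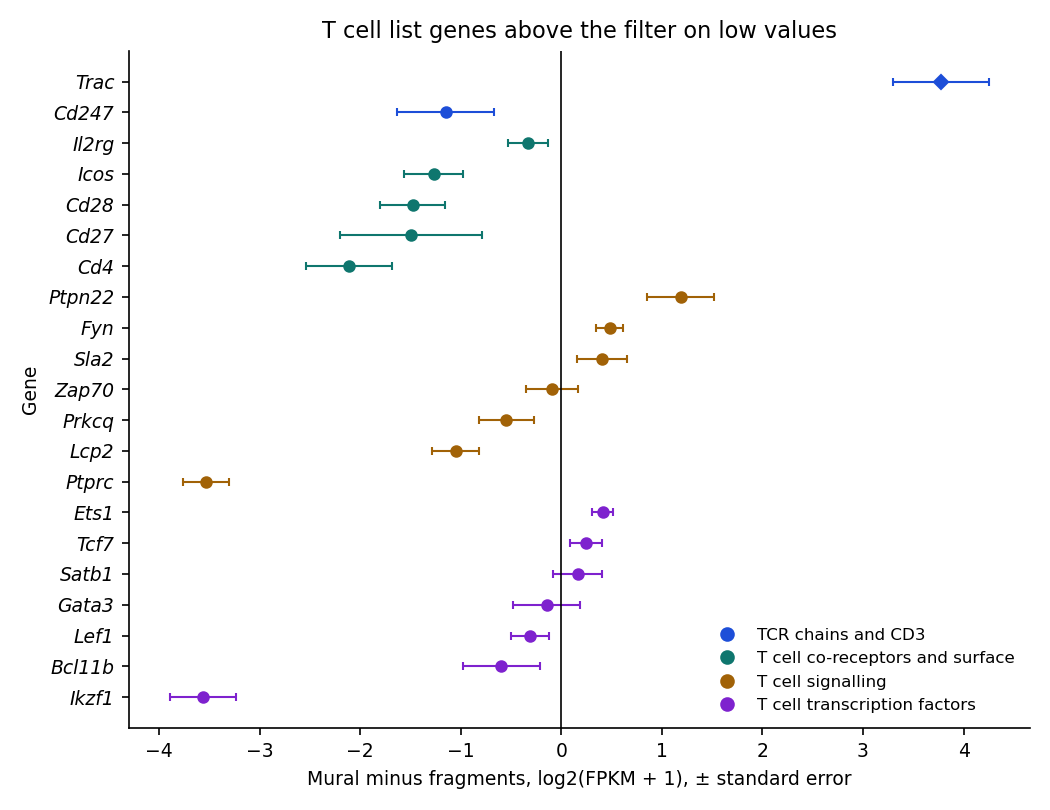
Difference between mural cells and microvascular fragments on the log2(FPKM + 1) scale, with standard errors, for *Trac* (diamond, not tested) and the 20 other genes of 4 T cell lists that passed the filter on low values. *Trac* lies at 3.77, and the other genes lie between -3.56 for *Ikzf1* and 1.19 for *Ptpn22*.

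The summed FPKM of the 52 T cell genes without *Trac* was 471, 453 and 465 in the sorted cells, compared with 535, 503 and 474 in the fragments. These sums were carried by genes that are not restricted to T cells, and 5 of them (*Ets1*, *Fyn*, *Tcf7*, *Lef1* and *Il2rg*) had a higher mean mural FPKM than *Trac*. The pan-leukocyte and microglia lists were lower in mural cells. Of 10 pan-leukocyte genes, *Ptprc* among them, 9 were called lower in mural cells, beside 10.1% of all genes tested, and 1 (*Cd52*) was not called. *Cd48*, at 0 in all mural libraries, entered the test through the microvascular libraries alone, so its call is not support for a difference. Among the mural libraries, *Itgal* and *Arhgap15* reached an FPKM of 1 in library 2 only. They too passed through the microvascular libraries, and their calls are not support either. The summed FPKM of the 10 genes was 44.2 to 53.9 in mural cells against 453 to 554 in fragments. Of 10 microglia genes 10 were called lower, beside the same 10.1%, with sums of 115 to 198 against 1893 to 2277. The part of these cells in the lower values of *Cd4*, *Ptprc*, *Ikzf1* and *Lcp2* was not tested.

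NK cell genes gave no clear direction. Of 10 NK and cytotoxic genes, *Prf1*, which encodes perforin, alone passed the filter, and it did so through the microvascular libraries (0.304, 0 and 0 against 3.89, 1.02 and 2.43 FPKM). The highest mural value was 4.03 FPKM, of the chemokine gene *Ccl5* in library 2, which was at 0 in mural libraries 1 and 3. Of 4 B cell genes tested 3 were called lower in mural cells (*Cd79b*, *Cd22* and *Ighm*), beside 10.1% of all genes tested. *Cd22* reached an FPKM of 1 in the microvascular libraries alone, and *Cd79b* in these and in mural library 2. Both genes entered the test through the microvascular libraries, so their calls are not support for a difference. *Ighm*, like *Trac* the constant region of an antigen receptor, had an FPKM of 4.84, 3.45 and 10.9 in the sorted cells, compared with 43.0, 56.9 and 59.0 in the fragments (log2 difference -2.98, adjusted p = 0.00127). Of 5 erythroid genes, taken as a sign of blood in the preparations, the 3 tested overlapped between the groups. By limma 0 were called, beside 16.5% of all genes tested, and 0 had an unadjusted p below 0.05. With 3 genes, 0 calls is near that share and is not read as a result about the list. *Slc4a1*, below the filter, had 0.648, 0.309 and 0.292 FPKM in the sorted cells against 3.69, 4.60 and 0.643 FPKM, and the groups overlapped.

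**Figure D4:**
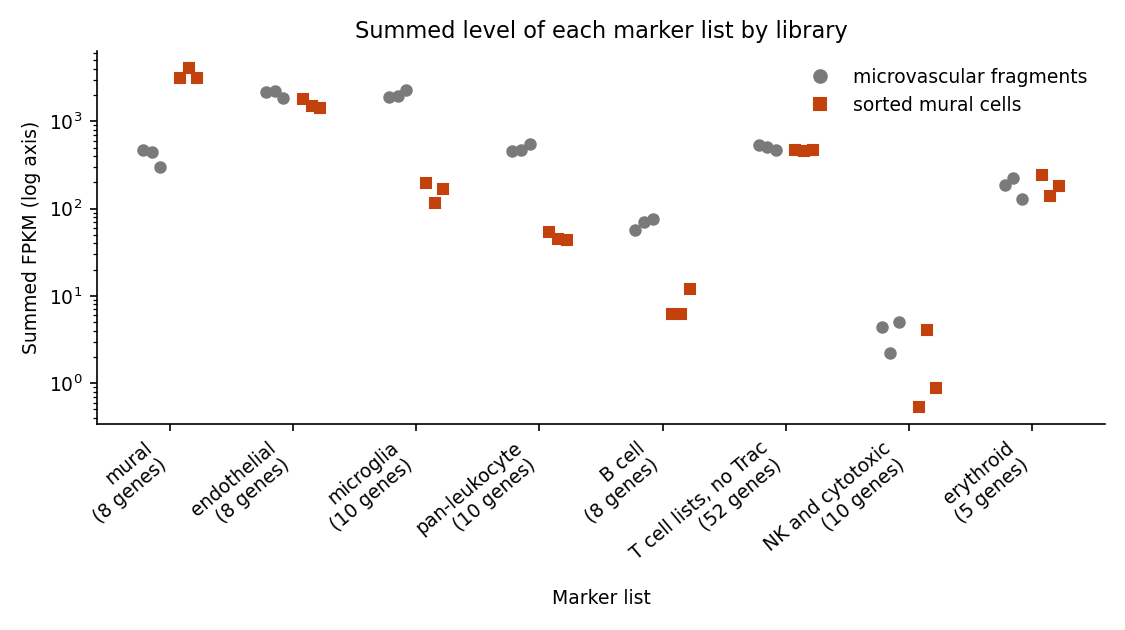
Summed FPKM (log axis) of each marker list in 3 microvascular libraries (circles) and 3 mural cell libraries (squares). The mural list is higher in the sorted cells, the microglia, pan-leukocyte and B cell lists are lower there, and the T cell lists without *Trac* lie between 453 and 535 in all libraries.

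*Dad1* did not differ between the groups beyond the spread of the libraries. It lies on the minus strand at chr14:54855154-54873779, so that it points towards *Trac*, and its near end is 12382 bases past the end of *Trac*. Its FPKM was 47.8, 37.9 and 50.8 in the sorted cells, compared with 41.4, 38.4 and 46.0 in the fragments, with means of 45.5 ± 6.72 and 41.9 ± 3.80 (SD, n = 3). The groups overlapped, and the log2 difference was 0.11 (standard error 0.15, adjusted p = 0.659, limma). These values rested on approximately 92.9 to 279.1 read pairs in mural libraries and 534.6 to 703.6 in microvascular libraries. Leaving out each library in turn gave log2 differences of 0.03 to 0.23.

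Few of the genes around *Trac* could be tested. Within 200 kb the annotation holds 69 genes, of which 63 are receptor segments, all at 0 in all libraries. Of the 6 others, 4 passed the filter on low values, 0 were called higher and 1 was called lower (limma, and 0 were higher at an unadjusted p below 0.05), beside 6.43% and 10.1% of all genes tested, so that 0 of 4 is near the background. *Abhd4*, which encodes a lipid hydrolase and starts 36135 bases past *Trac*, had 32.7, 28.2 and 39.4 against 28.6, 27.1 and 33.3 FPKM (log2 difference 0.16, adjusted p = 0.540). *Oxa1l*, which encodes a mitochondrial insertase, had 18.8, 14.4 and 15.2 against 15.1, 14.1 and 15.6 FPKM (log2 difference 0.10, adjusted p = 0.716). The gene called lower was *Slc7a7*, an amino acid transporter, with 6.98, 1.44 and 4.10 against 16.1, 16.7 and 18.8 FPKM (log2 difference -1.97, adjusted p = 0.0141), and it lost the call without microvascular library 2 or 3.

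The nearest gene called higher was *Mmp14*, which encodes a membrane-bound matrix metalloproteinase, 207669 bases past *Trac* and thus outside that window. Its FPKM was 119, 136 and 130 in the sorted cells, compared with 43.3, 44.7 and 39.1 in the fragments. Between them lies *Mrpl52*, a mitochondrial ribosomal protein gene with a transcript of 412 bases, nearly the length of the *Trac* model. Its FPKM was 35.3, 56.4 and 108 in the sorted cells, compared with 38.7, 42.1 and 35.9 in the fragments (adjusted p = 0.270), from 13, 9 and 18 read pairs in mural libraries. The 3 mural values of this short gene thus spread over a 3-fold range.

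**Figure D5:**
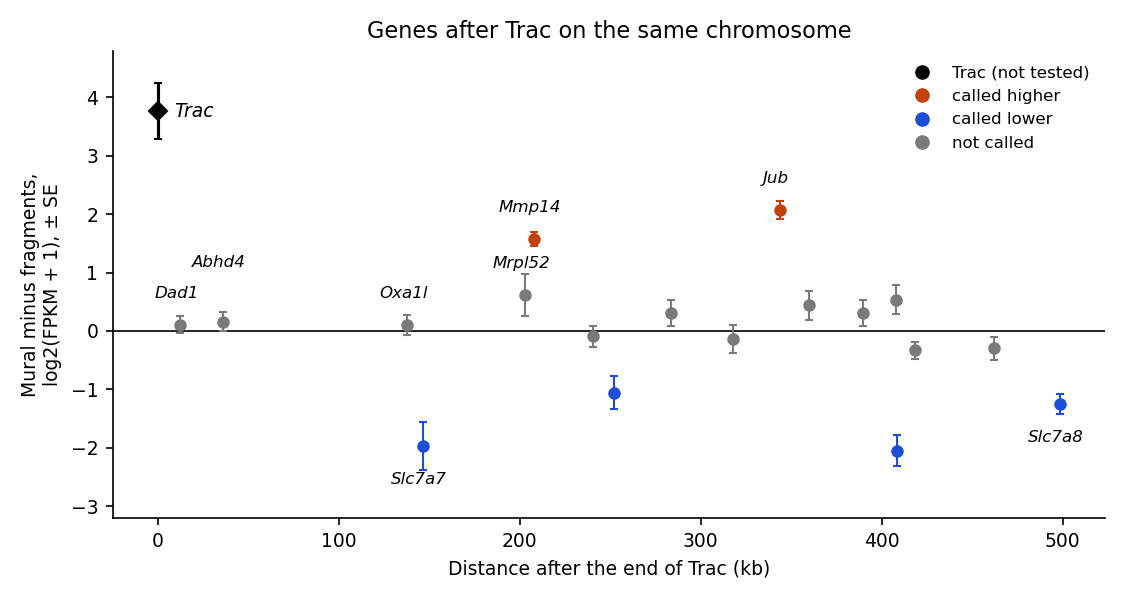
Difference between mural cells and microvascular fragments on the log2(FPKM + 1) scale, with standard errors, for *Trac* (diamond, not tested) and the 18 genes within 500 kb that passed the filter on low values, by their distance past the end of *Trac* in kb. The 4 genes within 200 kb include none called higher, and *Mmp14* and *Jub* farther away are called higher.

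No gene of the complex that DAD1 belongs to was called. Of 12 oligosaccharyltransferase genes, *Dad1* included, 12 passed the filter and 0 were called in either direction by limma, beside 16.5% of all genes tested. With so few genes, 0 calls is not read as a result about the complex. At an unadjusted p below 0.05 (limma), 2 were higher and 0 were lower, beside 2088 and 3093 of the 14801 genes tested. The median log2 difference of the 12 genes was 0.23. The smallest adjusted p was 0.0547, for *Tusc3* (50.0, 47.1 and 38.1 against 35.0, 30.6 and 24.9 FPKM), a subunit with an oxidoreductase domain. The catalytic subunit gene *Stt3b* had 62.5, 72.0 and 71.8 against 50.3, 53.3 and 56.1 FPKM.

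The genes whose pattern over the 6 libraries was most like that of *Trac* were sought by the root mean square difference of centred log2(FPKM + 1) values. The 5 closest were *Foxs1* (0.40), *Parm1* (0.54), *Ccdc3* (0.56), *Tbxa2r* (0.56) and *Sema5a* (0.57). None is a gene of the T cell lists. *Foxs1*, a forkhead transcription factor gene, had an FPKM of 64.1, 62.8 and 54.9 in the sorted cells, compared with 5.88, 3.18 and 4.44 in the fragments. In contrast to *Trac*, these values rested on 126, 52 and 48 read pairs in the mural libraries and 30, 15 and 23 in the microvascular libraries. A gene with a difference of similar size between the groups is close to *Trac* by this measure, so the likeness describes the size of the difference and little else.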

How the data were processed

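Total RNA was depleted of ribosomal RNA and made into libraries with a stranded SMARTer kit for low input, per the labels. Alignment by the authors was to NCBIM37 with TopHat2 2.0.4, duplicates were taken out with Picard 1.92, and the deposited FPKM values come from Cufflinks 2.2.1, 1 file per library, replicates not pooled. The scaling between libraries and the strand setting are not given in the sources used here. The files list 33460 genes, of which 33116 are in the GENCODE annotation of NCBIM37. The members and the gene lists were chosen with earlier results of these data known.

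Tests were made on log2(FPKM + 1) with limma 3.58.1 (R 4.3.3, intensity trend) over the 14801 genes that reached an FPKM of 1 in 3 or more of the 6 samples, with Benjamini-Hochberg adjustment over all of them. A pseudocount of 1 understates the change of low genes. Genes were called at an adjusted p below 0.05 and a ratio of mean FPKM above 2 (higher) or below 0.5 (lower). *Cd8a*, *Cd2* and *Lck*, below the filter but above 0 in some library, were given an exact permutation test. The fit was tested on simulated data. The p-values measure the spread between 3 samples per group, which the methods describe as 3 brains. The main fit did not pair the sides of a brain, since the labels do not name the brain of each library.

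The FPKM of 1 read pair was recovered per library from single-transcript genes by length, and depth is the sum over protein-coding genes with the longest transcript as length. Read pairs of genes with several transcripts are approximate. The genes named are the members, genes of the lists that were called or reached an FPKM of 1, genes within 200 kb of *Trac*, and the 5 genes most like *Trac*. *Mmp14*, *Jub*, *Mrpl52*, *Tcrg-C* and the T cell genes below an FPKM of 1 were named after their values were seen. *Trdc* and *Tcrg-C4* were not matched. Python 3.11.15 (pandas 2.3.3, NumPy 2.4.6, SciPy 1.17.1) served for the remaining steps, with blastn 2.17.0 and samtools 1.23.1 for the exons.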

Additional observations from a re-analysis of the deposited data

How the results depend on the processing

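Of 169 values recomputed under the alternatives, 145 kept their direction and stayed on their side of the threshold, within 1.5 times for counts, or within the spread of the libraries for values with no call. The ratio of *Lck* was 0.656 and turned to 1.71 without microvascular library 1, with a range of 0 to 1.71 when 1 library was left out. The number of T cell list genes called higher was 0 in place of 1 with a filter at an FPKM of 5, with no filter and with the replicate block, and 0 to 1 when 1 library was left out. The number called lower was 3 in place of 6 at an FPKM of 5, where 10 of these genes were tested, and 2 to 6 when 1 library was left out. *Cd28* and *Icos* were not tested in the fits without a microvascular library. Over all genes, 948 in place of 1493 were called lower at an FPKM of 5, where 10968 genes were tested, and 607 to 1733 when 1 library was left out, the low values being those without a microvascular library (654 without library 1, 702 without library 2 and 607 without library 3). Around *Trac*, 2 genes were called higher and 4 lower within 500 kb, 0 were called lower within 100 kb, and 0 to 1 were called lower when 1 library was left out. The log2 difference of *Trac* was 5.24 with a pseudocount of 0.1 and 3.28 to 4.27 when 1 library was left out, and its ratio of means 13.4 to 53.2 (this alternative, like the ratio of rates, was chosen after seeing the data). Where a wider window, a stricter filter or fewer samples did not set the change, the cause was not tested.

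Replicate numbers are shared between the groups, but the labels do not say that a number marks 1 brain. The deviations of same-numbered samples had correlations over genes of 0.082, 0.020 and 0.045, against -0.061 to 0.010 for the other pairs. Each sample was thus closest to its own number, which is a hint from the data that numbers mark brains. The division of each brain is part of the design, but the match of numbers to brains is not stated. With the replicate block, 900 genes were called higher and 1344 lower, against 952 and 1493. The T cell lists then had 0 higher and 5 lower, and *Dad1* had an adjusted p of 0.619.

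The depth of the mural libraries limits what can be said of low genes: 3 read pairs correspond to 8.10, 18.7 and 17.8 FPKM on *Trac* in mural libraries 1, 2 and 3, so a *Trac* level such as that of the fragments could not have been told from 0 there.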

Other observations

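*Trac* is 1 of 12 genes that the annotation of these files classes as antigen receptor constant regions, a class looked at after the values had been seen. In the mural libraries *Trac* (9, 5 and 4 read pairs) and *Ighm* (10, 3 and 10 read pairs) were the ones with more than 1 read pair in any library. *Igkc*, the constant region of the kappa light chain, held 1, 0 and 0 read pairs in mural libraries 1, 2 and 3 and 1, 4 and 2 in microvascular libraries 1, 2 and 3, and its FPKM of 4.62, 0 and 0 against 1.63, 7.14 and 3.34 did not pass the test (adjusted p = 0.247, limma). *Ighm* held 230, 282 and 321 read pairs in the fragments, where *Trac* held 3, 0 and 1.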
